A study of Mus musculus with 11 samples.

Results

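The genes described here are 7 members of the cyclic AMP (cAMP) axis: the adenosine receptor gene Adora2a, the prostaglandin E2 receptor genes Ptger2 and Ptger4, the phosphodiesterase genes Pde3b, Pde4b and Pde4d, and the transcription factor gene Crem. They were taken by symbol from a table of 52997 genes, and all 7 were found and passed the filter on low counts that left 12932 genes for testing. Pde3b passed it through VAT of mice given adjuvant alone, the only group in which its mean was above the minimum of 10 counts. Other genes of the pathway were read beside them. On the GRCm38 build (mm10) the annotation places Adora2a at chr10:75316877-75334784, Ptger2 at chr14:44988195-45003820 and Ptger4 at chr15:5206661-5244187. Pde3b lies at chr7:114415281-114539251, Pde4b at chr4:102087543-102607259, Pde4d at chr13:108449948-109953461 and Crem on chromosome 18.

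Transcripts had been measured by Smart-seq2, which amplifies full-length cDNA, in 11 libraries of 1000 double-sorted CD45.2+ clonotype+ Treg cells. The cells carried the TCR of vTreg53, a single Treg clone from visceral adipose tissue (VAT), so that every group is a model of 1 TCR. They came from the pooled spleen and lymph nodes (Spl/LN) of vTreg53 Tg+ Foxp3-GFP males on the C57BL/6 background and were transferred into male CD45.1+ B6 hosts, which kept their own Treg cells. The labels give an age of 15 weeks for every library. Peptide groups received Fat1562, the agonist peptide of this TCR, in CFA 6 weeks after transfer and in IFA 1 week later. Control groups received adjuvant alone according to the study's methods, while the labels call them unimmunized and name PBS. There were 3 libraries from Spl/LN with adjuvant alone, 3 from Spl/LN with adjuvant/Fat1562, 2 from VAT with adjuvant alone and 3 from VAT with adjuvant/Fat1562.

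cAMP is made by adenylyl cyclases when a receptor coupled to the stimulatory G protein is engaged, and it is broken down by phosphodiesterases. It acts through protein kinase A (PKA), which phosphorylates CREB and dampens TCR signaling in T cells. Treg cells are known for producing adenosine, for a high cAMP content and for the repression of Pde3b by Foxp3. CREB binds the full cAMP response element (CRE), TGACGTCA, or its short form TGACG, and Crem, Pde4b, Nr4a and Fos family genes are textbook targets.

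Total counts ran from 4490242 to 6570057 per library. Foxp3 lay between 6758 and 10273 normalized counts and Cd4 between 2118 and 3524 in the 11 libraries, and Foxp3 was 1.32-fold higher in VAT with adjuvant alone and 1.24-fold with peptide (a normalized count is a count scaled to the mean effective library size). Of 6 adipocyte markers, 5 had fewer than 10 counts in every library, and the 6 together reached at most 17.5 normalized counts. Summed markers of macrophages and monocytes ran from 45.9 to 142 in Spl/LN and from 32.5 to 83.3 in VAT, and those of dendritic cells from 48.9 to 106 in Spl/LN and from 110 to 226 in VAT. Fibroblast and mesothelial markers summed to 13.9 to 42.8, and CD8 T and NK cell markers to 96.3 to 195. Of 8 B-lineage markers, 4 (among them Ms4a1, Ebf1 and Pax5) stayed under 10 counts in every library, but Ighm put the summed list at 30499 in VAT adjuvant replicate 2 against 6192 in VAT adjuvant replicate 1, 12136 to 17190 in Spl/LN and 6418 to 8634 in VAT with peptide. Jchain, of the same list, had 1388 raw counts in VAT adjuvant replicate 2, 58 in VAT adjuvant replicate 1 and 504 in Spl/LN adjuvant replicate 2. It had at most 67 in the other libraries. Cd79a had 6 to 28 raw counts and Cd79b 42 to 223. Every called member result reported here kept its direction without VAT adjuvant replicate 2, which left 1 library in that group. The part of B-lineage transcripts in the member differences was not tested. Of 5 endothelial markers, Cdh5, Kdr and Cldn5 had fewer than 10 counts in every library. The list summed to 464 to 575 in Spl/LN, 242 and 299 in VAT with adjuvant alone and 413 to 596 in VAT with peptide, nearly all of it Pecam1, an adhesion molecule that leukocytes also carry. Pecam1 was lower in VAT with adjuvant alone (log2 fold change -0.89, SE 0.17, edgeR adjusted p = 0.0012) and higher with peptide in VAT (1.00, SE 0.17, edgeR adjusted p = 0.0011), as were Ptger2 and Pde4b below, and its part in those results was not tested. A list of 18 immediate early and cell dissociation genes moved strongly with tissue. Its sum ran from 9290 to 10582 normalized counts over the Spl/LN libraries, from 108940 to 129170 in VAT with adjuvant alone and from 46686 to 57772 in VAT with adjuvant/Fat1562. VAT was digested with collagenase, and the part of this response in the tissue differences below was not tested.

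Promoter windows of 300 bases (250 before and 50 after a RefSeq transcript start, GRCm38.p6) were searched for both forms of the CRE on both strands, a full site also counting as 2 overlapping short ones. Over 32851 windows, 1.79% held the full CRE and 20.8% the short form. Windows were available for 4 of the 7 members (Ptger2, Ptger4, Pde4b and Pde4d), and of their 7 windows, 1 held a short site, at a Pde4b start. Of 20 windows of 16 genes from a list of 19 known cAMP and CREB targets, 14 held a short site and 2 the full CRE. The list was written from genes known for such sites, so this share is a description of the list. Pde4b is shown as the member with a match, Areg and Dusp1 as the genes with the full CRE, and Fos and Nr4a2 as targets with several short sites and large differences between tissues. The 5 were chosen after their values were seen, capitals mark the sites, and a match is a description of the letters. The Pde4b stretch lies at chr4:102421491-102421554 on the plus strand, Areg at chr5:91139454-91139578 on the plus strand, Dusp1 at chr17:26508575-26508693 on the minus strand, Fos at chr12:85473731-85473861 on the plus strand and Nr4a2 at chr2:57124077-57124233 on the minus strand, each written 5′ to 3′ along the gene and upstream of the start.
Pde4b: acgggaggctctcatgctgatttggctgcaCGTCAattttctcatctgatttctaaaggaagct
Areg: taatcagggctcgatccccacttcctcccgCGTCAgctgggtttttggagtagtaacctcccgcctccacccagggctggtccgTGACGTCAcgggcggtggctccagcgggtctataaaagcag
Dusp1: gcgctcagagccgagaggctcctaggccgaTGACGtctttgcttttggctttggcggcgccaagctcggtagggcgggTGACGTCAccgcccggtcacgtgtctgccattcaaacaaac
Fos: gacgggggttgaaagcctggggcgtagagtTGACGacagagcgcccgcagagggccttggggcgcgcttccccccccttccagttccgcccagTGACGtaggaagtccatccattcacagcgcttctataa
Nr4a2: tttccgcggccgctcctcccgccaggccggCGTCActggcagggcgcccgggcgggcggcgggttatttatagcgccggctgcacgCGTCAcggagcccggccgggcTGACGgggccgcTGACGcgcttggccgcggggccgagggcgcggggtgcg
Areg and Dusp1 hold the full site, 61 and 143 bases before the start. Pde4b has 1 short site, 34 bases before one of its 4 starts with a window, Fos has 2 short sites and Nr4a2 has 4.

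**Figure D1:**
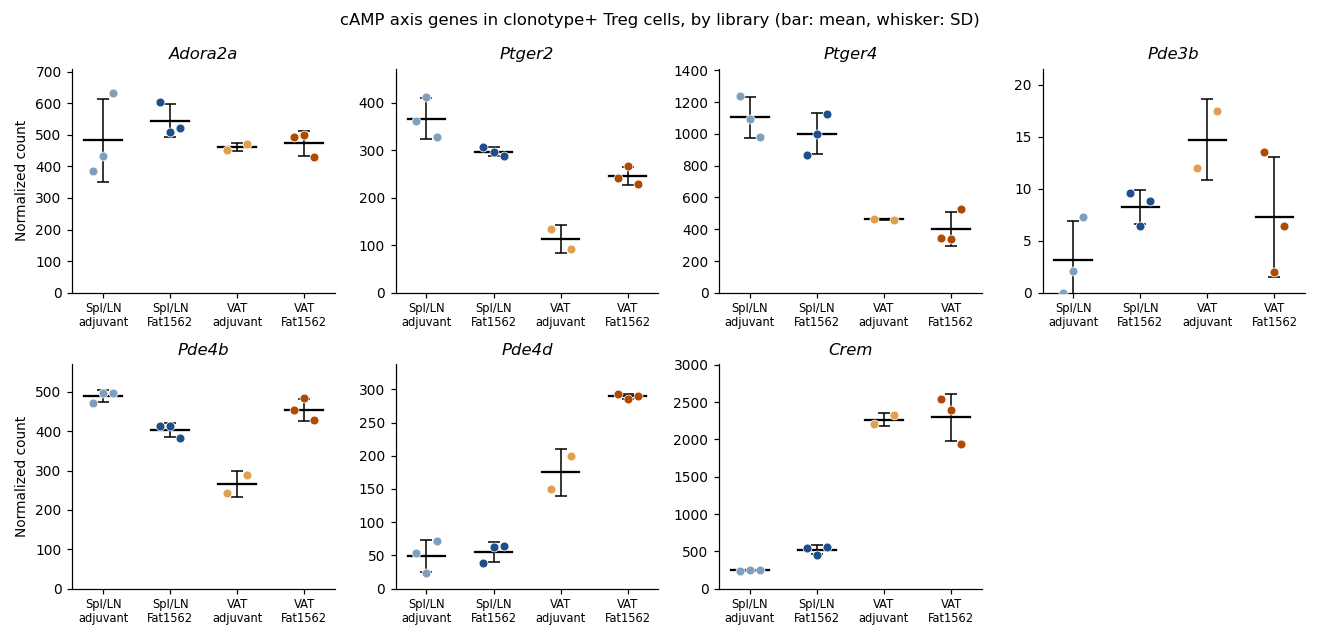
Normalized counts (y axes, from 0) of the 7 cAMP axis genes in each library (points), by tissue and immunization (x axes), with group means (bars) and SD (whiskers; n = 3, 3, 2 and 3). Crem and Pde4d were high in VAT, Ptger4 was low in VAT, Ptger2 and Pde4b were low in VAT with adjuvant alone, and Adora2a lay between 385 and 631 in every library.

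The first question was where the members stood between tissues when no peptide had been given. With adjuvant alone, 5 of the 7 members differed between VAT and Spl/LN, Crem and Pde4d being higher in VAT and Ptger2, Ptger4 and Pde4b lower. Calls were made by edgeR's quasi-likelihood test, at adjusted p-values (Benjamini-Hochberg, over all tested genes) below 0.05. By this rule 16.3% of tested genes were called in this comparison, 9.09% higher and 7.17% lower in VAT. The median log2 fold change of all tested genes was within 0.03 of 0 in each comparison.

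Among the receptors, Adora2a, the main Gs-coupled adenosine receptor of T cells, was at 385, 432 and 631 normalized counts in Spl/LN and at 453 and 470 in VAT. The 2 groups overlapped, and the log2 fold change of -0.07 (SE 0.18) had a 95% interval of -0.44 to 0.31 (edgeR adjusted p = 0.851). Ptger2, which encodes the Gs-coupled receptor EP2, was at 360, 412 and 327 in Spl/LN and at 135 and 92.5 in VAT. Both VAT libraries lay below every Spl/LN library, a 3.21-fold lower level (log2 fold change -1.68, SE 0.19, edgeR adjusted p = 6.72e-06). Ptger4 encodes EP4, the other Gs-coupled receptor of prostaglandin E2, and it was at 1236, 1097 and 979 in Spl/LN and at 465 and 460 in VAT. It too was lower in VAT without overlap, by 2.39-fold (log2 fold change -1.25, SE 0.18, edgeR adjusted p = 7.93e-05). Of the exon bases of Ptger4, 16.5% also lie in exons of genes on the opposite strand, against 4.74% for Ptger2, 8.01% for Crem and 0.0% for Adora2a, Pde3b, Pde4b and Pde4d. Whether reads were counted by strand is not given in the sources used here.

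The phosphodiesterases moved in opposite directions. Pde4b, an inducible cAMP-specific enzyme of lymphocytes, was at 472, 498 and 498 normalized counts in Spl/LN and at 242 and 290 in VAT, 1.84-fold lower in VAT without overlap (log2 fold change -0.88, SE 0.14, edgeR adjusted p = 0.00022). Its paralog Pde4d was at 53.1, 24.0 and 71.3 in Spl/LN and at 150 and 200 in VAT, 3.50-fold higher in VAT without overlap (log2 fold change 1.81, SE 0.32, edgeR adjusted p = 0.00066). Pde3b gave 0, 2 and 8 raw counts in Spl/LN and 11 and 14 in VAT. Counts this low rest on few molecules. Pde3b was not called, and it passed the filter on low counts through these VAT libraries alone, so its counts are given without an estimate.

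Crem showed the largest tissue difference of the members with adjuvant alone. It encodes CREB family modulators, among them the repressor ICER, which is transcribed from an internal promoter that cAMP induces. The counts do not separate its 39 annotated transcripts. Crem was at 236, 254 and 244 normalized counts in Spl/LN and at 2202 and 2330 in VAT, a 9.27-fold difference (log2 fold change 3.21, SE 0.13, edgeR adjusted p = 1.22e-11). Its absolute log2 fold change ranked 393 among the 12932 tested genes.

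**Figure D2:**
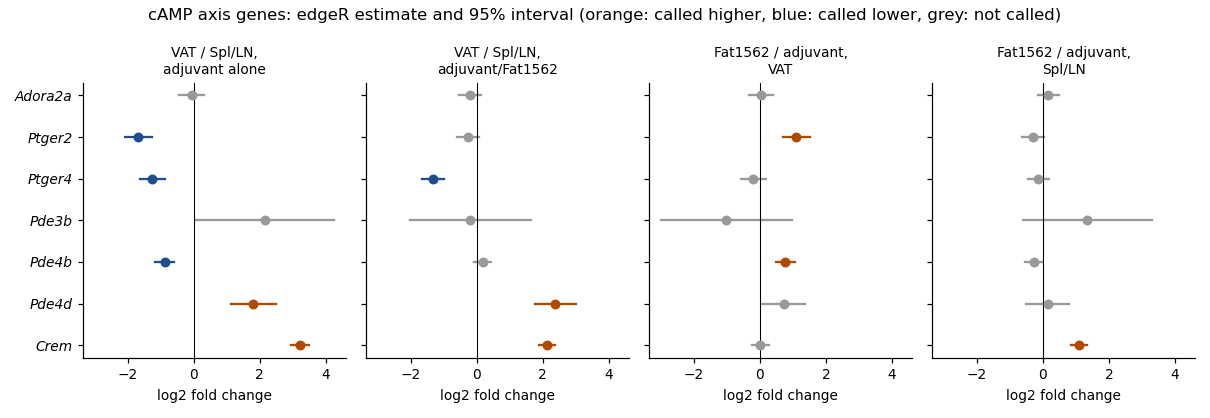
Log2 fold changes (x axes) of the 7 genes in the 4 comparisons, as edgeR estimates (points) with 95% intervals (lines), orange or blue where called higher or lower and grey where not called. Pde3b is drawn but not read, as it passed the filter on low counts through VAT with adjuvant alone. Crem and Pde4d lay right of 0 in both tissue comparisons and Ptger4 left of 0, whereas Ptger2 and Pde4b lay left of 0 with adjuvant alone and had intervals that included 0 with adjuvant/Fat1562.

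With adjuvant/Fat1562, VAT and Spl/LN differed in 3 of the 7 members. Crem and Pde4d were again higher in VAT and Ptger4 was again lower, while Ptger2 and Pde4b were not called. In this comparison 15.0% of tested genes were called, 8.26% higher and 6.73% lower in VAT, and it shares no library with the comparison under adjuvant alone.

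Crem stood at 551, 453 and 557 normalized counts in Spl/LN and at 2546, 2397 and 1937 in VAT, 4.40-fold higher in VAT without overlap (log2 fold change 2.14, SE 0.12, edgeR adjusted p = 9.19e-10). Pde4d was at 38.2, 63.2 and 65.0 in Spl/LN and at 293, 285 and 290 in VAT. The 3 VAT libraries lay close together and far above the 3 Spl/LN libraries, with a 5.20-fold difference, the largest of the members with peptide (log2 fold change 2.38, SE 0.29, edgeR adjusted p = 1.65e-05). Ptger4 was at 870, 1002 and 1128 in Spl/LN and at 344, 336 and 526 in VAT, 2.48-fold lower without overlap (log2 fold change -1.31, SE 0.16, edgeR adjusted p = 1.31e-05).

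Ptger2 was at 306, 297 and 287 in Spl/LN with peptide and at 242, 267 and 228 in VAT. Its VAT libraries were still the lower ones, but the log2 fold change of -0.27 had an interval of -0.60 to 0.06 (edgeR adjusted p = 0.290). Pde4b was at 413, 412 and 383 in Spl/LN and at 453, 483 and 427 in VAT, with an interval of -0.08 to 0.43 (edgeR adjusted p = 0.376). Adora2a was at 604, 507 and 520 in Spl/LN and at 493, 498 and 428 in VAT, and although all 3 VAT libraries were below the 3 Spl/LN libraries here, the interval was -0.53 to 0.13 (edgeR adjusted p = 0.454). Pde3b had 6 to 11 raw counts in Spl/LN and 2 to 12 in VAT.

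The effect of the peptide within each tissue was examined next. In VAT, 2 members, Ptger2 and Pde4b, were higher with adjuvant/Fat1562 than with adjuvant alone. Both had been lower in VAT than in Spl/LN with adjuvant alone, a comparison that shares the 2 VAT adjuvant libraries with this one. In VAT 8.30% of tested genes were called, 4.32% higher and 3.97% lower with peptide. All 3 peptide libraries exceeded both adjuvant libraries for each of the pair. Ptger2 rose 2.15-fold (log2 fold change 1.11, SE 0.19, edgeR adjusted p = 0.0013) and Pde4b 1.71-fold (log2 fold change 0.77, SE 0.14, edgeR adjusted p = 0.0017). Pde4d was also higher in every peptide library than in either adjuvant library, with a log2 fold change of 0.73 (SE 0.31), but missed the threshold (edgeR adjusted p = 0.175). It was called when edgeR fitted only the 2 VAT groups (adjusted p = 0.0169) and by limma with sample quality weights (adjusted p = 0.0225). Crem, at 2202 and 2330 in the VAT adjuvant libraries, had a log2 fold change of 0.02 (interval -0.24 to 0.27). Adora2a and Ptger4 had intervals of -0.34 to 0.41 and -0.57 to 0.18.

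In Spl/LN, Crem was the 1 member called with peptide. It rose 2.13-fold, the 3 peptide libraries at 453 to 557 lying above the 3 adjuvant libraries at 236 to 254 (log2 fold change 1.09, SE 0.12, edgeR adjusted p = 4.69e-05). Of all tested genes 3.98% were called in Spl/LN, 2.58% higher and 1.40% lower. Ptger2 and Pde4b had log2 fold changes of -0.30 (interval -0.63 to 0.02, edgeR adjusted p = 0.314) and -0.28 (interval -0.53 to -0.03, edgeR adjusted p = 0.209). In both genes the 3 peptide libraries were the lower ones. The intervals were -0.16 to 0.50 for Adora2a, -0.46 to 0.18 for Ptger4 and -0.50 to 0.81 for Pde4d, whose groups overlapped.

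Whether the peptide acted differently in the 2 tissues was tested directly as an interaction, for which 3.72% of tested genes were called, 1.70% with a more positive effect in VAT and 2.02% with a more negative one. The 3 members called were Ptger2, Pde4b and Crem. The effect in VAT exceeded that in Spl/LN by a log2 value of 1.41 (SE 0.25, edgeR adjusted p = 0.0035) for Ptger2 and by 1.05 (SE 0.18, edgeR adjusted p = 0.0031) for Pde4b. For Crem the effect in VAT was smaller than that in Spl/LN, with a log2 difference of -1.07 (SE 0.17, edgeR adjusted p = 0.0015). For Adora2a and Ptger4 the intervals of the difference ran from -0.63 to 0.36 and from -0.55 to 0.44, and for Pde4d from -0.34 to 1.49.

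Levels can be set roughly beside each other once divided by exon length, here that of all annotated exons of a gene together. The counts do not show which transcripts were in use, and the order of genes may depend on it. Per kilobase of exon, Ptger4 (166 ± 19.4 normalized counts per kb, SD, n = 3) and Adora2a (158 ± 42.7) were the highest members in Spl/LN with adjuvant alone and overlapped each other. Ptger2 followed at 70.6 ± 8.30, Pde4b at 46.3 ± 1.43 and Crem at 41.5 ± 1.51, with no overlap between these neighbours. In VAT with adjuvant alone Crem led at 384 ± 15.4 per kb (n = 2), above Adora2a at 151 ± 3.83 and Ptger4 at 69.6 ± 0.57, while Pde4b at 25.2 ± 3.18 and Ptger2 at 21.9 ± 5.76 overlapped. Pde4b stayed above Pde4d in every group, but the distance was smaller in VAT. Per kb they stood at 46.3 and 4.12 in Spl/LN with adjuvant alone, at 38.1 and 4.62 in Spl/LN with peptide, at 25.2 and 14.6 in VAT with adjuvant alone, and at 43.0 and 24.1 in VAT with peptide. Pde3b was lowest in each group, at 0.34 to 1.6 per kb. In these libraries of sorted cells, a smaller share of expressing cells and less RNA per cell cannot be told apart.

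The other genes of the pathway were read from 12 lists, which held 124 further genes, of which 85 were tested. The lists were drawn up with earlier results known, and their counts are descriptions. Of the 85, 32.9% were called between VAT and Spl/LN with adjuvant alone (23 higher and 5 lower), against 16.3% of all tested genes. With adjuvant/Fat1562 29.4% were called (18 higher and 7 lower), against 15.0%. With peptide 22.4% were called in VAT (3 higher and 16 lower), against 8.30% of all tested genes. In Spl/LN 8.24% were called (4 higher and 3 lower), against 3.98%. The 14 tested cAMP and CREB target genes described below made up 12 of the 23 and 12 of the 18 called higher in VAT. They also made up 10 of the 16 called lower with peptide in VAT. The 23 include Adora2b, Hpgd and Fosb, which passed the filter on low counts only through VAT libraries, where they were high. The shares of the tissue comparisons thus rest in part on such genes.

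**Figure D3:**
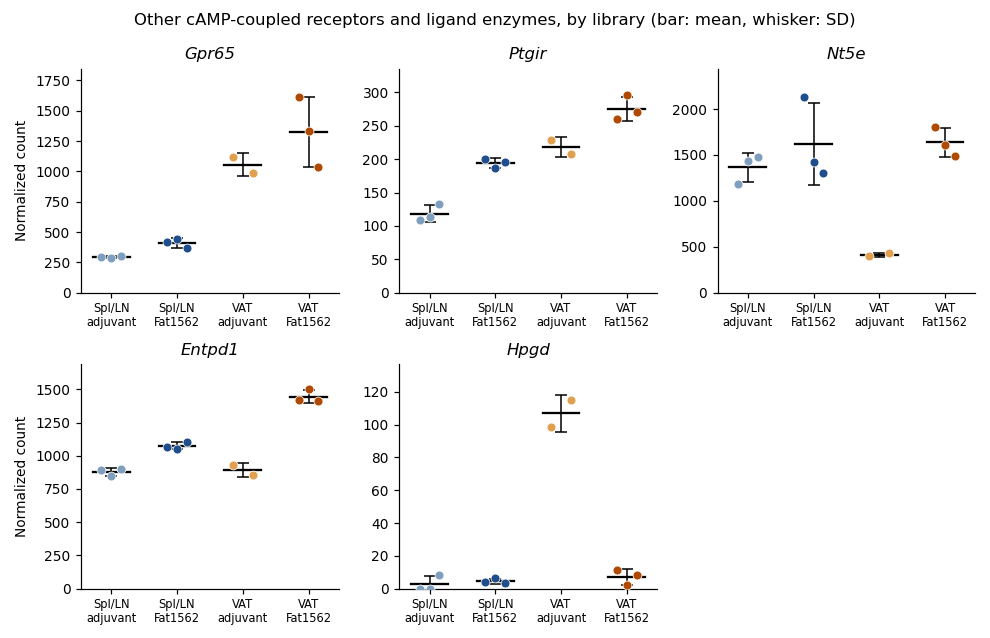
Normalized counts (y axes, from 0) of 2 further cAMP-coupled receptor genes and 3 genes of ligand production or removal in each library (points), by group, with group means (bars) and SD (whiskers). Hpgd was highest in the 2 libraries of VAT with adjuvant alone, where Nt5e was lowest.

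Of 15 genes of adrenergic and other cAMP-coupled receptors, 5 were tested, of which 2 were higher in VAT with adjuvant alone and 1 with peptide. Of all tested genes 9.09% and 8.26% were called higher in these comparisons. The adrenergic genes of the list had too few counts to be tested. Gpr65, a proton-sensing Gs-coupled receptor, was 3.60-fold higher in VAT with adjuvant alone and 3.23-fold higher with peptide (edgeR adjusted p = 1.33e-07 and 1.87e-07), and 24.7% of its exon bases lie in an exon of an opposite-strand gene. Calcrl, part of the receptors of adrenomedullin and CGRP, was at 124, 176 and 95.1 normalized counts in Spl/LN with adjuvant alone and at 312 and 282 in VAT. Both VAT libraries were the higher ones, by 2.26-fold (log2 fold change 1.18, SE 0.23, edgeR adjusted p = 0.0017).

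Adora2b, the other Gs-coupled adenosine receptor, was the 1 further adenosine receptor gene tested and is named after its values were seen. It had 0, 5 and 0 raw counts in Spl/LN with adjuvant alone and 18 and 22 in VAT, and 2, 3 and 4 in Spl/LN with peptide and 48, 25 and 45 in VAT. It passed the filter on low counts through the VAT libraries alone, so its counts are given without a test. Ptgir, the receptor of prostacyclin, was higher in VAT than in Spl/LN with adjuvant alone (log2 fold change 0.88, SE 0.17, edgeR adjusted p = 0.0018). With peptide the difference between tissues was 0.50 (SE 0.15, edgeR adjusted p = 0.0344), a call that was lost without any 1 of the 6 libraries compared (edgeR adjusted p = 0.0645 to 0.137). In Spl/LN Ptgir rose by 0.71 with peptide (SE 0.16, edgeR adjusted p = 0.0161), a call that was lost without any 1 of the 3 Spl/LN peptide libraries (edgeR adjusted p = 0.0518 to 0.0546). In VAT its log2 fold change with peptide was 0.34 (SE 0.17, edgeR adjusted p = 0.282).

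Of 9 genes listed around adenosine production and removal, all were tested. With adjuvant alone 1 was higher in VAT and 2 were lower, Nt5e and the peptidase gene Dpp4. With peptide in VAT 2 were higher. Of all tested genes 16.3% were called between tissues with adjuvant alone and 8.30% with peptide in VAT. Nt5e encodes CD73, which makes extracellular adenosine from AMP, and was at 1182, 1440 and 1474 normalized counts in Spl/LN and at 396 and 431 in VAT with adjuvant alone. With peptide it was at 2132, 1418 and 1307 in Spl/LN and at 1809, 1614 and 1492 in VAT. It was thus 3.30-fold lower in VAT with adjuvant alone (log2 fold change -1.72, SE 0.18, edgeR adjusted p = 2.77e-06), and in VAT peptide raised it 3.96-fold (log2 fold change 1.99, SE 0.18, edgeR adjusted p = 2.80e-06, interaction 1.74, SE 0.23, edgeR adjusted p = 0.00038). These estimates share the 2 VAT adjuvant libraries. Entpd1, which encodes CD39 and supplies AMP to CD73, rose 1.61-fold with peptide in VAT (log2 fold change 0.69, SE 0.10, edgeR adjusted p = 0.00024). Ada, the intracellular adenosine deaminase, lay between 55.0 and 119 in all libraries and was called in none of the comparisons. Dpp4, the surface peptidase CD26, was 5.65-fold lower in VAT with adjuvant alone and 2.91-fold lower with peptide (edgeR adjusted p = 0.00012 and 0.0025).

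Hpgd encodes the enzyme that inactivates prostaglandin E2. It had 91 and 92 raw counts in VAT with adjuvant alone, 10, 2 and 9 in VAT with peptide, and 0 to 9 in the 6 Spl/LN libraries. It passed the filter on low counts through VAT with adjuvant alone, so these counts are given without a test. Ptgs2, the inducible cyclooxygenase of prostaglandin synthesis, reached at most 3 raw counts and was not tested.

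Between the receptors and the nucleus, the tests in VAT against Spl/LN with adjuvant alone called 0 of 6 tested G protein genes and 1 of 5 adenylyl cyclase genes. They called 1 of 8 genes of PKA and EPAC and 2 of 10 anchoring protein genes. Of CREB, its coactivators and SIK kinases they called 3 of 11 genes, including Crem, against 16.3% of all tested genes. With peptide they called 2 of the 6, 0 of the 5, 2 of the 8, 1 of the 10 and 4 of the 11, again including Crem, against 15.0%. Outside the members, 1 phosphodiesterase gene, Pde4c, was called, with adjuvant alone. Prkacb, a catalytic subunit of PKA, was 1.42-fold lower in VAT than in Spl/LN with peptide (log2 fold change -0.51, SE 0.11, edgeR adjusted p = 0.0035), and Ric8a, a chaperone of G protein α subunits, was 1.39-fold lower (edgeR adjusted p = 0.0037). Of the A-kinase anchoring proteins, which hold PKA in place, Akap12 was 1.96-fold higher in VAT with adjuvant alone (edgeR adjusted p = 0.0023), and Akap7 fell 5.40-fold with peptide in VAT (edgeR adjusted p = 0.0011). Sik1 encodes a kinase that restrains the CRTC coactivators of CREB and is itself a CREB target. It stood at 35.5 to 53.0 normalized counts in Spl/LN with adjuvant alone and at 1127 and 1086 in VAT, 25.0-fold higher (log2 fold change 4.64, SE 0.17, edgeR adjusted p = 3.07e-12). With peptide the log2 fold change between tissues was 3.46 (SE 0.15, edgeR adjusted p = 7.52e-11). The coactivator gene Crtc3 was 1.75-fold lower in VAT with adjuvant alone (edgeR adjusted p = 0.0043), a call that was lost without VAT adjuvant replicate 2 (edgeR adjusted p = 0.0583).

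**Figure D4:**
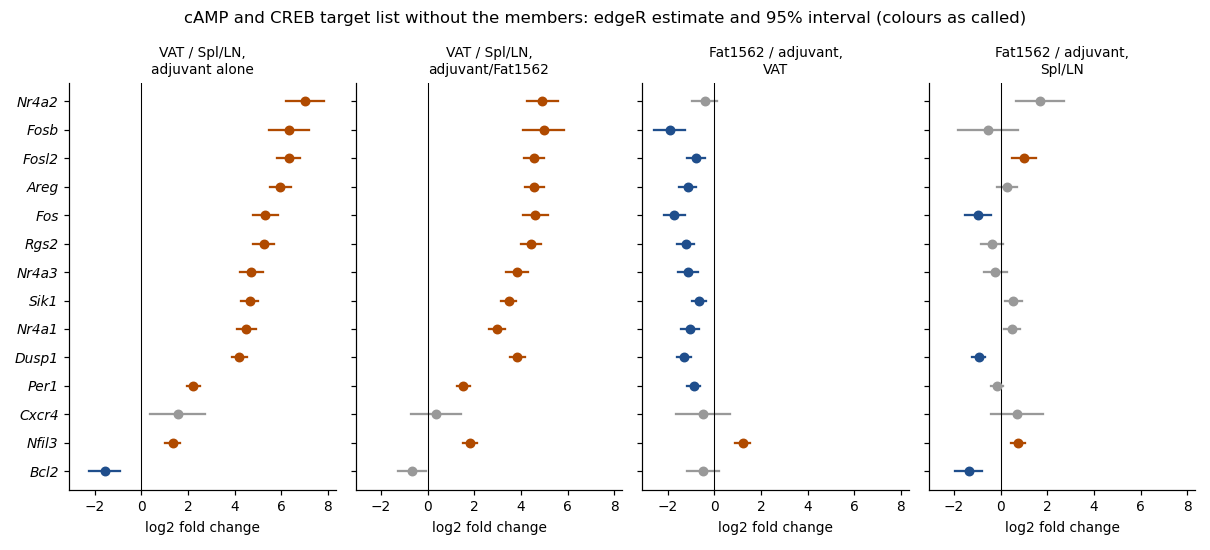
Log2 fold changes (x axes) of the 14 tested cAMP and CREB target genes that are not members, in the 4 comparisons, as edgeR estimates (points) with 95% intervals (lines), coloured by call. In VAT against Spl/LN 12 genes were called higher in each comparison, and with peptide in VAT 10 were called lower and Nfil3 higher.

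Without the members the target list held 15 genes, of which 14 were tested. In VAT against Spl/LN with adjuvant alone, 12 were higher and Bcl2 was lower, with a median log2 fold change of 4.68. With adjuvant/Fat1562, 12 were higher with a median of 3.84. With peptide in Spl/LN 2 were higher and 3 lower, with a median of 0.05. Nr4a2, an orphan nuclear receptor, had the largest difference of the list with adjuvant alone (log2 fold change 7.01, SE 0.38, edgeR adjusted p = 4.91e-10). It rests on few counts in Spl/LN (4, 24 and 2), and its log2 fold change was 8.77 without the second Spl/LN adjuvant library. The AP-1 gene Fosb had 19, 3 and 5 raw counts in Spl/LN with adjuvant alone and 764 and 477 in VAT. Fosb is 1 of the 12 genes called higher in each comparison. It passed the filter on low counts through the VAT libraries alone, so its counts are given without a test. Areg, the growth factor amphiregulin whose promoter is shown above, was at 110, 121 and 123 normalized counts in Spl/LN and at 8400 and 6292 in VAT with adjuvant alone.

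With peptide in VAT the list turned the other way, with 10 genes lower and 1 higher and a median of -0.96. This comparison shares the 2 VAT adjuvant libraries with that of the tissues under adjuvant alone. High values in these libraries enter the comparisons with opposite signs. Fosb fell by 1.92 (SE 0.30, edgeR adjusted p = 0.00059) and Fos by 1.70 (SE 0.22, edgeR adjusted p = 7.94e-05) on the log2 scale, while Nfil3, a bZIP transcription factor, rose by 1.21 (SE 0.16, edgeR adjusted p = 8.88e-05). Of the members, which are not counted here, Crem had a log2 fold change of 0.02 with peptide in VAT. Pde4b, lower in VAT with adjuvant alone, rose by 0.77 with peptide in VAT. Of the 15 genes, 4 (Fos, Fosb, Nr4a1 and Dusp1) are also in the immediate early list, whose sums are given above. Among the 10 tested genes outside that list, 8 were higher and 1 lower in VAT with adjuvant alone (median 4.68), and 6 were lower and 1 higher with peptide in VAT (median -0.71). Absence from that list does not show that a gene is free of the response. The target genes and the immediate early genes were high in the same libraries, and the part of the immediate early response in the other target differences was not tested.

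The genes whose pattern over the 11 libraries was closest to each member were found by the root mean square (RMS) difference of centred log2 normalized counts, among 8966 other genes (8967 for Pde3b). For Crem they were Npnt and Gas2 (RMS 0.24 and 0.27 log2 units), and for Pde4d Nedd4 and Ccr8 (0.30 and 0.40). Ptger4 was closest to Il16 and Txnip (0.21 and 0.22), Ptger2 to Gcat and Tmem192 (0.19 and 0.21), and Pde4b to Zfp281 and Rgs10 (0.13 and 0.14). Adora2a varied little in itself (RMS 0.20 about its own mean) and was closest to Ssh1 and Patl1 (0.11 and 0.12). For Pde3b even the nearest genes, Cd200r4 and Lgals3, lay 0.80 and 0.83 away. The nearest gene to Crem, Npnt, was at 57.0 to 69.9 normalized counts in Spl/LN with adjuvant alone, 163 to 197 with peptide and 456 to 955 over the VAT libraries.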

How the data were processed

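The authors deposited 1 table of raw counts for 52997 genes, from paired reads of 38 bases. The submitters' processing notes name STAR 2.5.4, featureCounts and mm10, whereas the study's methods name Cuffquant, and neither gives the annotation or strand setting behind the counts. No molecular identifiers are named, so the counts are of reads and not of molecules. Same-group libraries are biological replicates according to the methods. Total counts ran from 4490242 to 6570057 per library.

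From the counts, libraries were first scaled to a common total, and the 12932 genes whose mean then exceeded 10 in any group entered a single fit of the 4 groups in edgeR 4.0.16 (R 4.3.3; TMM, quasi-likelihood, prior count 0.125 for fold changes). P-values were adjusted over these genes by the Benjamini-Hochberg method and called under 0.05. Intervals are at 95%, and normalized counts are counts divided by TMM library size and brought to its mean. Groups and replicate numbers came from the labels. Every gene list was described by counts alone, without a set test. Exon lengths, overlaps and positions came from GENCODE vM21 (GRCm38) and promoters from RefSeq (GRCm38.p6).

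The members, lists and tests were chosen with earlier results of these data known. Besides the members, the text names, for each list and comparison, at most the 2 genes called higher and the 2 called lower with the largest changes among those with a mean normalized count of 50 or more in a group, the ligand enzymes Entpd1, Nt5e, Ada, Ptgs2 and Hpgd, the 2 nearest patterns per member, and Foxp3 and Cd4. Genes outside this rule are named as such. Alternatives were other filters and normalizations, limma 3.58.1, DESeq2 1.42.0, only the groups compared, a replicate block, a 2-fold minimum and each library left out. The steps were tested on simulated data. Some genes are not reported here.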

Additional observations from a re-analysis of the deposited data

Results flagged for a closer look

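The effect of adjuvant/Fat1562 differed between VAT and Spl/LN, by the interaction test of edgeR, for 3 members and 4 other named genes. On the log2 scale the difference, VAT minus Spl/LN, was 1.41 for Ptger2, 1.05 for Pde4b and -1.07 for Crem. The effect in VAT was 1.11 for Ptger2, 0.77 for Pde4b and 0.02 for Crem, and that in Spl/LN was -0.30, -0.28 and 1.09.

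Among the others, Sik1 had a difference of -1.18, Fosl2 of -1.79 and Nt5e of 1.74. Nr4a2 had a difference of -2.11, and its call was lost without any 1 of 9 of the 11 libraries (edgeR adjusted p = 0.0671 to 0.130), while it was -3.86 without Spl/LN adjuvant replicate 2.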

How the results depend on the processing

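The 14 called results of the members kept their direction under every alternative, and 12 kept their call. The other 2, both of Pde4b (-0.88 and 0.77), were lost when a 2-fold change was required, which left 1 member called with peptide in VAT. With that minimum the genes called were 1157, 789, 455, 190 and 277 in the order VAT against Spl/LN with adjuvant alone, with peptide, peptide in VAT, peptide in Spl/LN and interaction, against 2102, 1938, 1073, 515 and 481. No filter and DESeq2 each called 793 genes with peptide in Spl/LN, and DESeq2 789 in the interaction. Leaving out each library gave 1259 to 2114, 1289 to 2377, 508 to 1398, 190 to 502 and 240 to 575 genes, with 5 to 6, 3, 2, 1 and 3 members called. The 6th member was Pde3b, without Spl/LN adjuvant replicate 3. It passed the filter on low counts through VAT with adjuvant alone, so that call is not read as a result. Counts moved by over 1.5 times without VAT adjuvant replicate 1 (1259, 545 and 240 for adjuvant alone, peptide in VAT and interaction) or 2 (1367, 508 and 287), VAT peptide replicate 2 (1289, 623 and 276 for tissues with peptide, peptide in VAT and interaction), and Spl/LN peptide replicates 1, 2 and 3 (334, 190 and 320 with peptide in Spl/LN, and 310 for the interaction without replicate 2). Of 21 member results not called, 7 changed sign near 0. Adora2a with adjuvant alone was 0.075 by limma with sample quality weights and -0.20 to 0.18 without single libraries. With peptide in VAT Adora2a ran from -0.0049 to 0.099 and Crem from -0.070 to 0.12, in Spl/LN Pde4d from -0.16 to 0.52, between tissues with peptide Pde3b from -0.94 to 0.24, and in the interaction Adora2a from -0.38 to 0.00014 and Ptger4 from -0.30 to 0.057. Of 53 results of other named genes 0 changed direction, and 26 lost their call somewhere, 8 of them only to the 2-fold minimum and 17 (14 genes) without a single library. The cause was not tested.

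Same-numbered libraries did not deviate together (correlations -0.069 to 0.080 over 15 pairs, against -0.10 to 0.081 over 30 other pairs). With 2 or 3 libraries per group this cannot show whether libraries of the 2 tissues came from the same mice. The replicate block called 1804, 1861, 990, 515 and 435 genes and 5, 3, 2, 1 and 3 members, and gave -0.00097 for Adora2a with peptide in VAT. Depth limits Pde3b, Adora2b, Hpgd, Nr4a2, Fosb and Pde4c, whose counts fell under 10 in some libraries.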

Other observations

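Gnas, which encodes the stimulatory G protein α subunit that couples these receptors to adenylyl cyclase, had 7 to 34 raw counts in each of the 11 libraries. Of its exon bases, 22.0% lie in exons of 2 genes on the opposite strand. The gene was chosen after its values were seen.

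Among the phosphodiesterases outside the members, Pde4c was called higher in VAT with adjuvant alone (log2 fold change 2.33, SE 0.68, edgeR adjusted p = 0.0265), at 3, 26 and 6 raw counts in Spl/LN and 62 and 40 in VAT. The call was lost without Spl/LN adjuvant replicate 1 or 3 and without either VAT library (edgeR adjusted p = 0.0592 to 0.144), and the log2 fold change was 3.77 without Spl/LN adjuvant replicate 2.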
